A study of Rattus norvegicus with 18 samples.

Results

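The step from 0.5 h to 1 h after sciatic nerve transection was examined in the proximal nerve stump of the rat. The 3 arrays labelled 1 h were compared with the 3 arrays labelled 0.5 h, 6 of the 18 arrays of a time course of 6 time-points with 3 arrays each. All groups were adult male Sprague-Dawley rats in which a segment of the left sciatic nerve was resected. The tissue was the proximal sciatic nerve, and total RNA of the whole segment was hybridised to Agilent single-colour rat arrays. The 0.5 h and 1 h groups differed in the time since surgery and, on the array side, in the slide and the scan day. The 0.5 h arrays lay on 2 slides scanned on the same day as the 0 h arrays, and the 1 h arrays lay on 1 other slide scanned on another day, so that time, slide and scan day cannot be told apart in this comparison. How many rats contributed to an array is not given, so the P-values measure the spread between arrays only. That spread was estimated within the 6 time-points over all 18 arrays. The comparison asks which early responses of the nerve were already on the way down at 1 h and which began between the 2 time-points.

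Injured tissue answers within minutes through immediate early genes, whose promoters are held ready and whose transcription needs no new protein. Many encode transcription factors of the AP-1, EGR and NR4A families, and many of their mRNAs are short lived because AU-rich elements bind destabilising proteins. Other early genes encode phosphatases that dampen the kinase signals. Delayed early genes follow, among them cytokines and chemokines driven by NF-kB and AP-1. In peripheral nerve, Schwann cells (SCs), fibroblasts, endothelium and resident macrophages can all make these transcripts, and chemokines recruit neutrophils and monocytes to the stump. In bulk nerve RNA, fewer cells of a type and less RNA per cell cannot be told apart.

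Promoters of 5 early genes are shown because they hold the elements by which these genes are usually classed. Each runs from 250 bases before to 50 bases after the transcription start given by RefSeq (assembly GRCr8), 5′ to 3′ on the strand of the gene, with the motif in capitals. Zfp36, at chr1:92799059-92799358 on the minus strand, holds a CArG box, the element of serum response factor, at -32 to -23. Dusp1, at chr10:17184603-17184902 on the plus strand, holds a full cAMP response element (CRE, TGACGTCA) at -124 to -117. Il6, at chr4:5894526-5894825 on the minus strand, holds a CRE at -162 to -155 and an NF-kB motif at -68 to -59. Cxcl1, at chr14:17479272-17479571 on the minus strand, holds overlapping NF-kB motifs between -84 and -74, and Irf1, at chr10:38417685-38417984 on the plus strand, holds one at -65 to -56.
Zfp36: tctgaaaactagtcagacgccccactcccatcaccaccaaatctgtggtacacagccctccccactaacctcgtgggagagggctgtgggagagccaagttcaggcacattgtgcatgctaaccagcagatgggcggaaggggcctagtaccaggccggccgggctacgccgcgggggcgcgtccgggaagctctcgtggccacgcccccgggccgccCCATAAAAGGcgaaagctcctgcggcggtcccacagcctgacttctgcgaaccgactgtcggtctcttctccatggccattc
Dusp1: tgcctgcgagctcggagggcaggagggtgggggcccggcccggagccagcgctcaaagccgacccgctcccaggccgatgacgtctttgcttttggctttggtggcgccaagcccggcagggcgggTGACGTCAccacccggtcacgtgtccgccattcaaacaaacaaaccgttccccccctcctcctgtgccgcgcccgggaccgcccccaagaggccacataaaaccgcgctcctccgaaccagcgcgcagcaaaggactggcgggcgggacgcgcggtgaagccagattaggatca
Il6: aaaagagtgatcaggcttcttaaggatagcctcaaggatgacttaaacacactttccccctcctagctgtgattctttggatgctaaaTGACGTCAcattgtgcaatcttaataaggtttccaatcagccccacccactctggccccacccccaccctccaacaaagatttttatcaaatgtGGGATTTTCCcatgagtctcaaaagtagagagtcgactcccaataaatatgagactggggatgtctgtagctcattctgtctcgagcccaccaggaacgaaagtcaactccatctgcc
Cxcl1: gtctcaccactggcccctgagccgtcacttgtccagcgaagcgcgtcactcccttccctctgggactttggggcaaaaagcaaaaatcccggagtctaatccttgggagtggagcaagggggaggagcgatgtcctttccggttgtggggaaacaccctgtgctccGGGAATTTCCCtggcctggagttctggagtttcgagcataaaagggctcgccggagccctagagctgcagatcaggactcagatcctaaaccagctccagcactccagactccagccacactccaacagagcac
Irf1: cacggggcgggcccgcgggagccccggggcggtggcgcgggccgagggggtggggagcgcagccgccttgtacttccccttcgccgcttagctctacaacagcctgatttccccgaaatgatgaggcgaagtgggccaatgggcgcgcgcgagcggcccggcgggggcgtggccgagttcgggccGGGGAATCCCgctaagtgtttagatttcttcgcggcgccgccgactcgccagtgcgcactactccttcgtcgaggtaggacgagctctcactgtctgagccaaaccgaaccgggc

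Both strands of 33469 such windows were searched. The CRE was in 1.83% of them, the CArG box in 1.64% and the NF-kB motif in 4.18%. An NF-kB motif was in 11 of the 15 windows of the NF-kB regulator genes (73.3%), in 6 of the 15 windows of the chemokine genes and in 4 of the 26 windows of the immediate early transcription factors (15.4%). Among these last, 5 windows held a CRE and 4 a CArG box. A window was listed for 398 of the 507 pathway genes tested, and a match describes letters, not a site in use.

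Levels are given as log2 of the processed signal minus the 75th percentile of the same array, so that 0 is the level of that percentile and 1 unit is a 2-fold change; probes differ in brightness, and levels were compared within a gene only. Between 65.9% and 73.1% of the probes were well above background on the 6 arrays, and all pairs of these arrays correlated at 0.98 or more over probes. The median signal before scaling was 174.9 to 202.2 on the 0.5 h arrays and 156.2 to 159 on the 1 h arrays, without overlap, and the part of this in the results was not tested. The tissue label was checked with cell type markers. The summed level of 14 SC markers, such as Pmp22, lay between 9.81 and 9.96 on the 0.5 h arrays and between 9.9 and 10.17 on the 1 h arrays, and that of 10 fibroblast markers between 10.45 and 10.48 and then between 10.53 and 10.58, without overlap. Skeletal muscle genes set single arrays apart. The summed level of 14 muscle genes was 7.61, 6.5 and 6.75 on the 0.5 h arrays and 2.33, 3.9 and 7.08 on the 1 h arrays. The muscle sum spread more widely among the 1 h arrays, and its part in the results below was not tested.

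**Figure D1:**
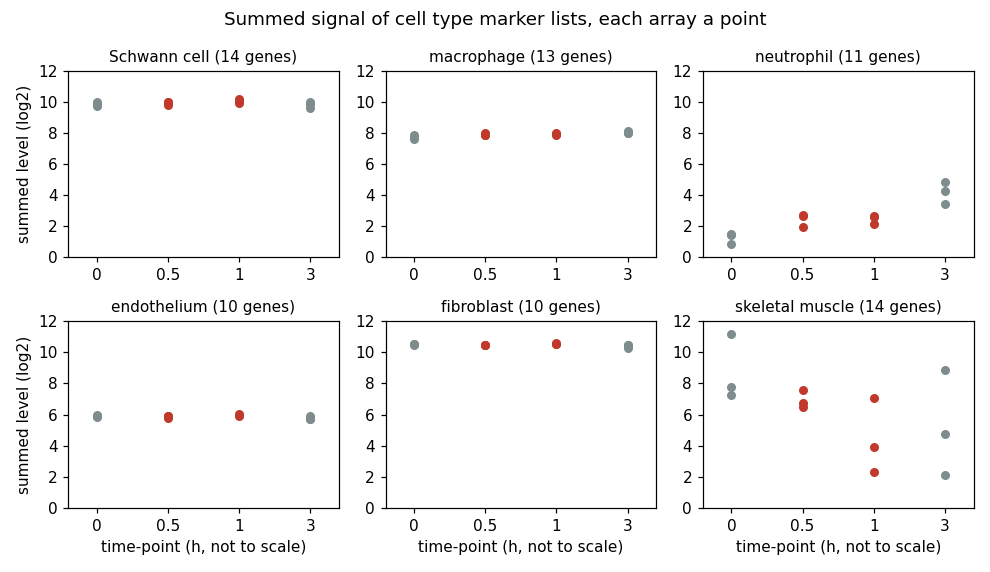
Summed level (log2 of the summed signal relative to the 75th percentile of the array) of 6 cell type marker lists on each array at 0, 0.5, 1 and 3 h, 1 point an array; the 0.5 h and 1 h arrays are red. SC, fibroblast, endothelium and macrophage sums stayed within narrow ranges, whereas the muscle sum ran from 2.33 to 7.08 on the 1 h arrays.

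No gene met the threshold in this step. Of 27187 genes tested with limma, 0 were called higher and 0 lower at 1 h (0.0% each way, unadjusted P under 0.01 with an adjusted P under 0.05), and the smallest adjusted P was 0.0724. At an unadjusted P under 0.05, 1772 genes were higher (6.52%) and 1719 lower (6.32%). Between 0 h and 0.5 h the same model called 1162 genes higher (4.27%) and 468 lower (1.72%). A shift of each array to its median turned that balance, with 719 higher and 1352 lower, and normexp left 116 and 7, so a rise at 0.5 h refers below to the scaling used here. Between 1 h and 3 h the model called 1519 higher (5.59%) and 1241 lower (4.56%), against 192 and 69 with normexp and 522 lower with the median shift, so a rise or fall at 3 h refers to the same scaling. These comparisons share the 0.5 h arrays and the 1 h arrays with the step, and are given for the levels on either side of it. The median difference over all genes was 0.01 and its median SE 0.18, from 0.44 in the dimmest sixth of the probes to 0.11 in the brightest. A P-value that misses the threshold does not show that the levels were equal, and 469 genes differed by more than 2-fold between the means.

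The count depended on how arrays were weighted. With a weight estimated for each array, 215 genes were called higher and 194 lower, the third 1 h array having the lowest weight of the 6 (0.224). Leaving that array out called 0 genes in either direction. Every 1 h array lay above every 0.5 h array for 2643 genes (9.72%) and below for 2833 (10.4%), and the counts of such genes in each list below are read against these 2 shares. With normexp background correction the median step over all probes moved from 0.012 to 0.274, and all pathway lists except the chemokines, the NF-kB regulators and the glucocorticoid responsive genes then had medians below that of all genes.

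**Figure D2:**
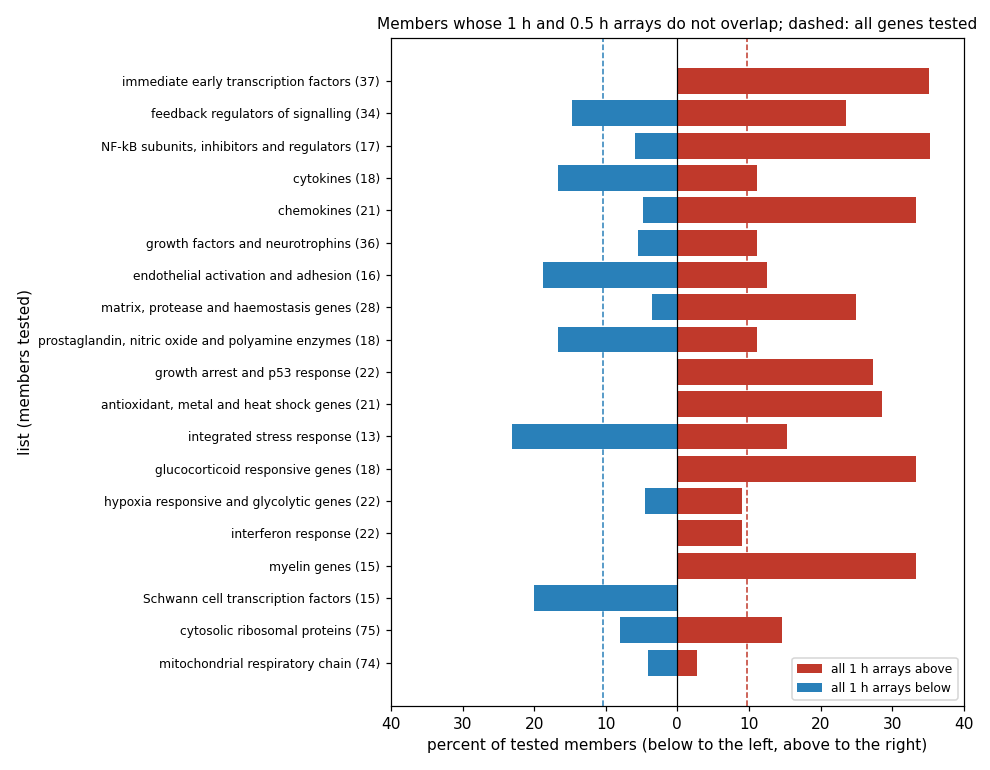
Share of tested genes in each pathway list whose 3 arrays at 1 h all lay above (right) or all below (left) the 3 arrays at 0.5 h, in percent; the dashed lines mark the share over all 27187 genes, 9.72% above and 10.4% below. The immediate early (13 of 37), NF-kB (6 of 17) and chemokine (7 of 21) lists reach well beyond the right-hand line. So do the glucocorticoid (6 of 18), myelin (5 of 15), antioxidant (6 of 21) and growth arrest (6 of 22) lists. The matrix (7 of 28) and feedback (8 of 34) lists reach nearly as far. The integrated stress response list (3 of 13) reaches furthest left.

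Fos, Egr1 and Jun, well known immediate early genes picked as examples, stood above their 0 h levels at both 0.5 h and 1 h. Fos, a subunit of AP-1, had levels of 5.03, 4.56 and 4.21 at 0.5 h, then 4.48, 3.96 and 4.57 at 1 h, against a mean of -1.1 at 0 h. The groups overlapped, and the difference was -0.26 with a 95% interval of -0.97 to 0.45 (limma, adjusted P = 0.788). Egr1, a zinc finger factor, read 5.16, 5.14 and 5.0 at 0.5 h, then 5.21, 5.35 and 4.85 at 1 h, a difference of 0.03 (-0.58 to 0.65). Jun, also an AP-1 subunit, read 5.15, 4.9 and 4.77 and then 5.16, 4.88 and 4.64, a difference of -0.05 (-0.39 to 0.3). For each of the 3 genes the interval leaves out a 2-fold change in either direction, although that of Fos reaches down to 0.51 of the 0.5 h level. All 3 genes had risen at 0.5 h, by 5.69 for Fos, 3.85 for Egr1 and 1.93 for Jun, and fell after 1 h: the difference between 3 h and 1 h was -2.6, -2.02 and -1.56.

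**Figure D3:**
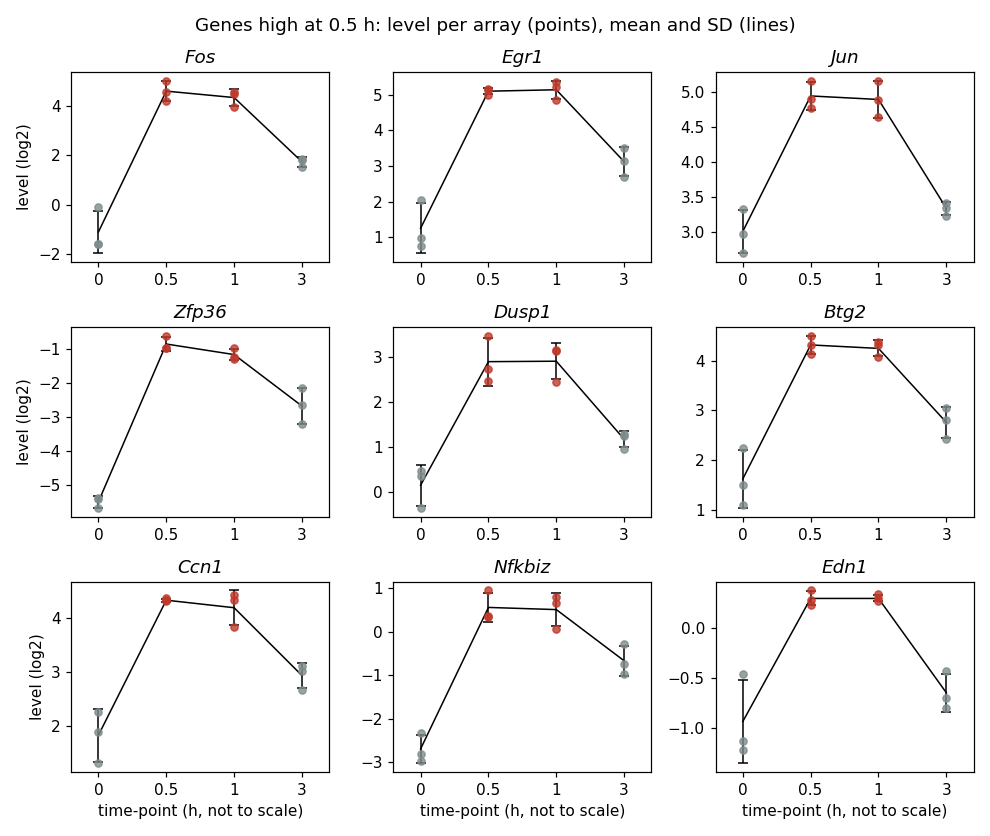
Level (log2, relative to the 75th percentile of each array) of 9 genes that had risen at 0.5 h and fell between 1 h and 3 h, at 0, 0.5, 1 and 3 h; points are arrays, lines join the means, and bars are the SD of 3 arrays. The 0.5 h and 1 h points (red) overlap in each panel or, for Zfp36, meet at -0.99.

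A further 6 genes, chosen as examples after their values were seen, rose at 0.5 h, were not called in the step and fell at 3 h. Of the 1162 genes that had risen at 0.5 h, 84 were called lower and 61 higher at 3 h than at 1 h, where 4.56% of all genes were called lower and 5.59% higher. Dusp1, a phosphatase that inactivates MAP kinases, differed by 0.02 (-0.62 to 0.65) in the step. Btg2, an antiproliferative gene, differed by -0.07, and Nfkbiz, a nuclear IkB protein, by -0.05. Ccn1, a matricellular protein, differed by -0.14, and Edn1, which encodes the vasoconstrictor endothelin-1, by 0.00 with all 6 arrays between 0.23 and 0.38. Zfp36, which encodes tristetraprolin, a protein that destabilises AU-rich mRNAs, stood at -0.61, -0.99 and -0.98 at 0.5 h and at -0.99, -1.23 and -1.29 at 1 h, so that the groups met at -0.99, and the difference was -0.31 (-0.88 to 0.26, adjusted P = 0.664). Of the same 1162 genes, 748 had a 95% interval of the step within a 2-fold change either way, and 0 were called lower at 1 h. Their interval lay wholly below 0 for 326 and wholly above 0 for 55, and all 1 h arrays were below all 0.5 h arrays for 512 and above for 53. These genes were chosen for a high level on the same 0.5 h arrays, which by itself lowers their step, so these counts describe the genes and do not test a decay.

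Of 37 immediate early transcription factors tested, 13 had all 1 h arrays above all 0.5 h arrays and 0 had all below, with a median difference of 0.23 against 0.01 over all genes; relative to the median of all genes this list stood at 0.22, at 0.18 to 0.22 with 3 other scalings, and at -0.13 with normexp background correction. None was called. Fosl1, the AP-1 subunit Fra-1, whose probe lies at chr1:208098827-208098886 (rn4), read -3.06, -3.58 and -3.33 at 0.5 h, where the 0 h mean was -3.45, and -1.99, -1.47 and -1.36 at 1 h. No arrays overlapped, and the 1 h level was 3.28-fold that at 0.5 h (difference 1.71, 95% interval 1.14 to 2.28, limma adjusted P = 0.0724). By 3 h Fosl1 had risen by a further 4.5 to a mean of 2.89. Nfil3, a bZIP repressor, read -1.19, -1.73 and -1.56 and then -0.63, -0.54 and 0.23, a difference of 1.19 (0.52 to 1.85, adjusted P = 0.176). Irf1, an interferon regulatory factor whose promoter is printed above, read -0.94, -0.98 and -0.93 and then -0.34, -0.15 and 0.92, a difference of 1.09 (0.51 to 1.67, adjusted P = 0.152). Neither Fosl1, Nfil3 nor Irf1 had been called at 0.5 h.

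Some members that had risen at 0.5 h stood above that level at 1 h. Myc, which encodes a growth-promoting factor, had risen by 1.28 at 0.5 h and read 2.21, 1.67 and 2.09 there against 2.39, 2.76 and 3.02 at 1 h, a difference of 0.73 (adjusted P = 0.232). Csrnp1 differed by 0.56 after a rise of 2.24, and Ier5, which had not been called at 0.5 h, by 0.76, and their arrays did not overlap either. Atf3, a stress and injury factor of SCs and neurons, differed by 0.3 and Nr4a1, a nuclear receptor, by 0.23, after rises of 1.93 and 1.2 at 0.5 h, and both fell at 3 h. Over the whole list, 20 of 37 members had risen and 0 fallen at 0.5 h, beside 4.27% and 1.72% of all genes. Between 1 h and 3 h, 2 rose and 11 fell, beside 5.59% and 4.56% of all genes.

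**Figure D4:**
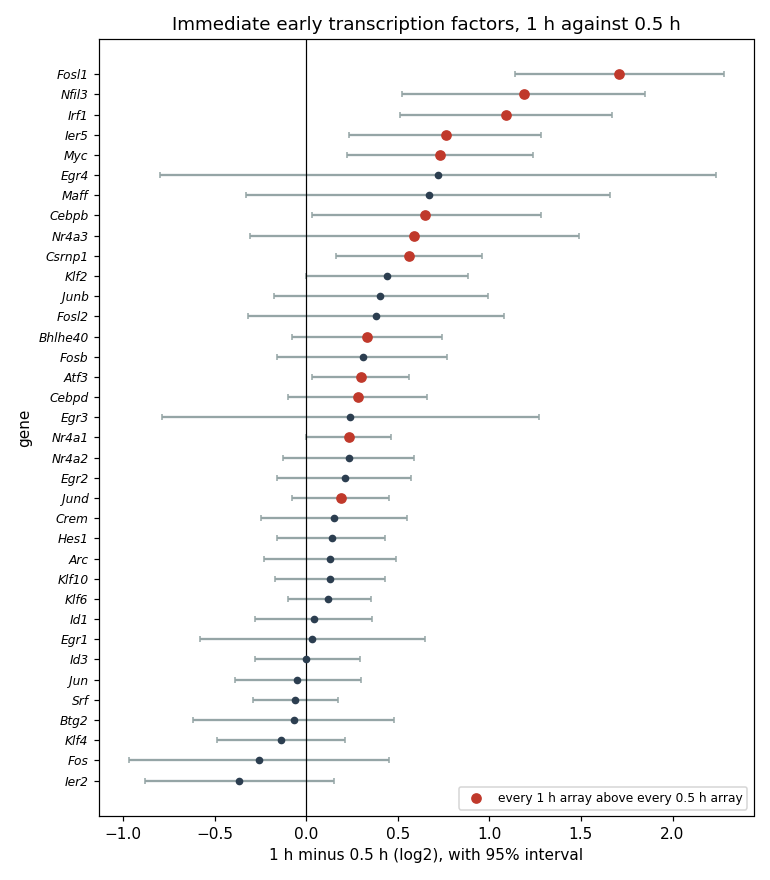
Difference in level (log2) between 1 h and 0.5 h for the immediate early transcription factors, with its 95% interval (bars); red points are the 13 genes whose 1 h arrays all lay above the 0.5 h arrays. Fosl1 has the highest difference (1.71), and the intervals of Fos, Egr1 and Jun span 0. Id2, whose spots were flagged as outliers on 2 of the 1 h arrays, is not drawn.

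Feedback regulators dampen the kinases and receptors that start the response. Of 34 tested, 0 were called in the step, 8 had all 1 h arrays above and 5 all below, with a median difference of 0.11. At an unadjusted limma P under 0.05, 9 were higher and 1 lower, beside 6.52% and 6.32% of all genes. By 0.5 h, 17 had risen, beside 4.27% of all genes. Trib1, a pseudokinase that directs C/EBP factors to degradation, read -1.33, -1.74 and -1.8 at 0.5 h, then -0.47, -0.25 and 0.23 at 1 h. Its groups were well apart, by 1.46 or 2.75-fold (0.96 to 1.96, adjusted P = 0.0724), and its other probe had the same sign. Dusp5, a nuclear ERK phosphatase, read 0.25, -0.18 and 0.2 and then 0.98, 1.15 and 1.2, a difference of 1.02 (0.53 to 1.51, adjusted P = 0.132), with a rise of 1.49 before the step and of 0.78 after it. Dusp2, another MAP kinase phosphatase, read -3.61, -4.48 and -3.71 and then -2.14, -2.46 and -2.16, a difference of 1.68 (0.69 to 2.67, adjusted P = 0.184).

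Of the Sprouty genes, inhibitors of receptor tyrosine kinase signalling, none was called. Spry1 read 2.91, 2.5 and 2.74 and then 3.28, 3.06 and 3.27, a difference of 0.48, and Spry4 read 0.71, 0.77 and 0.74 and then 0.41, 0.37 and -0.22, a difference of -0.55 (adjusted P = 0.129 and 0.317). Both had risen at 0.5 h, and whether their steps differed from each other was not tested. Spry2 overlapped between the groups, with a difference of 0.31 (-0.13 to 0.75, adjusted P = 0.547). Socs3, an inhibitor of JAK and STAT signalling, had risen by 3.09 at 0.5 h and differed by 0.83 in the step with overlapping arrays (adjusted P = 0.295).

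Regulators of NF-kB had a median difference of 0.34, or 0.33 above the median of all genes, a distance that shrank to 0.03 with normexp. Of 17 tested, 6 had all 1 h arrays above and 1, Tnip2, all below. Nfkbia, the inhibitor that returns NF-kB to the cytoplasm, read 4.41, 3.64 and 4.12 at 0.5 h, then 4.79, 4.57 and 4.83 at 1 h, a difference of 0.67 (0.2 to 1.14, adjusted P = 0.233). Rel, an NF-kB subunit, read -2.96, -2.84 and -2.81 and then -2.69, -1.98 and -2.01, a difference of 0.64 (adjusted P = 0.218). Birc3, an inhibitor of apoptosis and NF-kB target, differed by 0.77 with its first 1 h array and its highest 0.5 h array both at -1.26.

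Of 21 chemokines tested, 8 had risen at 0.5 h, beside 4.27% of all genes. Of the 21, 0 were called in the step, where the median difference was 0.05 against 0.01 over all genes. In the step 7 had all 1 h arrays above all 0.5 h arrays and 1, Ccl3, all below. Ccl2, the main attractant of monocytes, read 1.17, 1.23 and 1.55 at 0 h, 3.75, 3.93 and 4.09 at 0.5 h, then 4.64, 5.37 and 5.22 at 1 h. The 1 h arrays stood 2.23-fold above those at 0.5 h (difference 1.15, 0.65 to 1.66, limma adjusted P = 0.114), and a further rise of 1.31 followed at 3 h. Cxcl1, an attractant of neutrophils, read 4.02, 3.71 and 3.73 at 0.5 h, then 4.57, 4.8 and 4.31 at 1 h, a difference of 0.74 (adjusted P = 0.181) after a rise of 5.57. Cxcl2 and Cxcl3, of the same cluster, differed by 0.65 and 1.07 (adjusted P = 0.297 and 0.199).

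Cxcl9, Cxcl10 and Cxcl11 are targets of interferon signalling that attract T cells. Cxcl11 read -5.5, -5.9 and -5.22 at 0.5 h, where 1 of 3 arrays was well above background, and -4.03, -2.75 and -2.92 at 1 h, where all 3 were. Its fitted difference of 2.31 (0.86 to 3.75, adjusted P = 0.196) thus rests on a 0.5 h level that 1 array measured. Cxcl10 differed by 1.11 (-0.34 to 2.55, adjusted P = 0.507) without overlap, and Cxcl9 by 0.1 (-0.45 to 0.65, adjusted P = 0.907) with overlap. The interferon response list as a whole had a median of 0.03, with 2 of 22 members, Irf1 and Cxcl10, all above.

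Of 18 cytokines tested, 0 were called in the step, 2 had all 1 h arrays above and 3 all below, near the shares over all genes, and the median difference was -0.01. Il6, the cytokine of the acute phase response, whose probe lies on chromosome 4, was not well above background on any 0 h array and read -2.69, -2.92 and -2.59 at 0.5 h, then -1.96, -0.69 and -1.31 at 1 h. All 1 h arrays were above all 0.5 h arrays, by 2.67-fold (difference 1.42, 0.87 to 1.97, limma adjusted P = 0.097), and without the first 1 h array Il6 was the single gene called higher. It rose by a further 1.65 at 3 h. Il10, the anti-inflammatory cytokine, ran the other way: it read -2.33, -2.62 and -2.71 at 0.5 h, against a mean of -5.28 at 0 h, and -4.42, -3.99 and -3.67 at 1 h. The groups did not overlap, and the level at 1 h was lower by 2.77-fold (difference -1.47, -2.35 to -0.58, adjusted P = 0.189). Il1b, the inflammasome cytokine, had risen by 2.68 at 0.5 h and differed by 0.06 in the step (-0.65 to 0.77), and Tnf, a dim probe, by 0.52. Tnfsf9, a costimulatory ligand, and Il18, another inflammasome cytokine, were lower without overlap, with differences of -0.37 and -0.52.

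**Figure D5:**
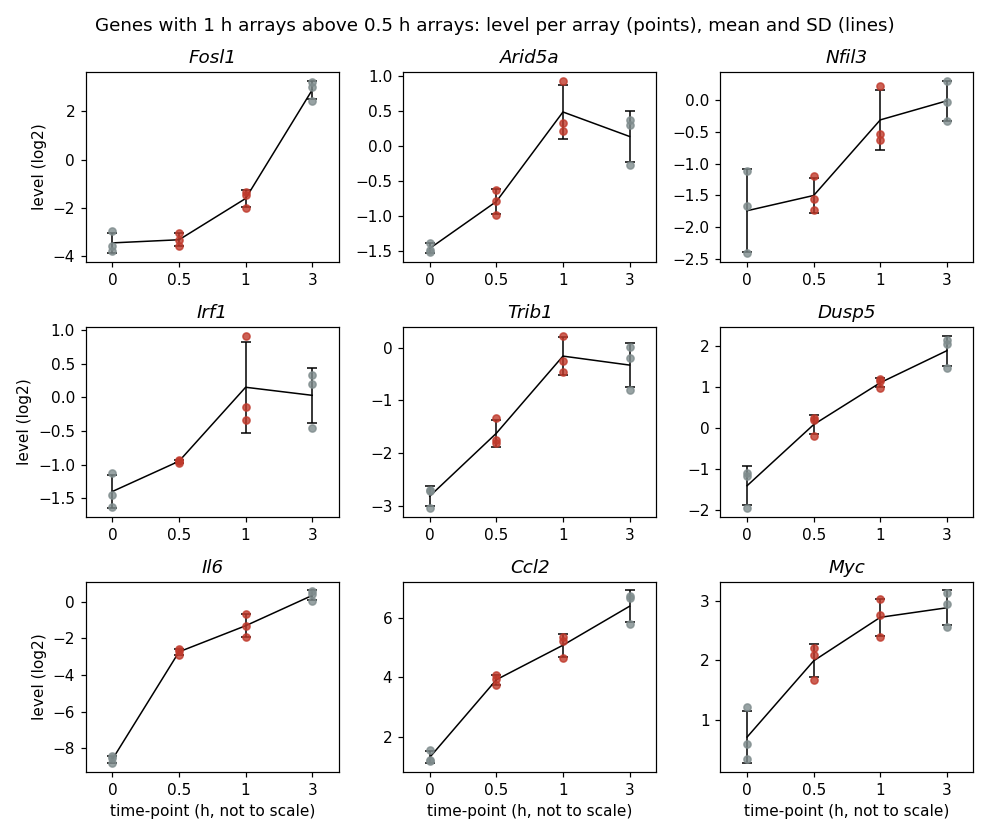
Level (log2, relative to the 75th percentile of each array) at 0, 0.5, 1 and 3 h of genes higher at 1 h than at 0.5 h. The genes were picked as examples and not by a ranking, and genes lower at 1 h are not drawn. Points are arrays (0.5 h and 1 h in red), lines join the means, and bars are the SD of 3 arrays. For Fosl1, Trib1, Il6 and Ccl2 every 1 h array lies above every 0.5 h array, with differences of 1.71, 1.46, 1.42 and 1.15.

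Of 18 genes for prostaglandin, nitric oxide and polyamine enzymes, 3 had all 1 h arrays below and 2 above. Ptgs2, the inducible cyclooxygenase, had risen by 2.8 at 0.5 h and read 0.16, -0.39 and -0.16 there, then -0.69, -0.66 and -1.39 at 1 h. It was lower at 1 h on every array, by 1.72-fold (difference -0.78, -1.36 to -0.2, adjusted P = 0.263), and its mean at 3 h was -1.54. F3, tissue factor, which starts coagulation, likewise had risen at 0.5 h, by 0.53, and read 4.12, 3.98 and 4.52 and then 3.79, 3.77 and 3.62, a difference of -0.48 (adjusted P = 0.192). Il10, Ptgs2, F3 and Spry4 had each risen at 0.5 h, in a comparison that shares the 0.5 h arrays, and none met the threshold in the step.

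Of 16 genes of endothelial activation, 2 had all 1 h arrays above and 3 all below. Icam1, a leukocyte adhesion receptor, read 2.52, 2.62 and 2.55 at 0.5 h, then 2.79, 3.26 and 3.29 at 1 h, a difference of 0.55 (adjusted P = 0.227). Sele, E-selectin, the endothelial receptor on which leukocytes roll, differed by 1.05 (0.16 to 1.93, adjusted P = 0.31) and fell by 1.94 at 3 h. Of 28 matrix, protease and haemostasis genes, 7 had all 1 h arrays above and 1, Lox, all below. Thbs1, thrombospondin-1, was not well above background on any 0.5 h array and was so on all 3 at 1 h, which made it at least 2.11-fold higher (adjusted P = 0.205); the bound sets the 1 h mean against the dimmest signal well above background on the 0.5 h arrays. Timp1, an inhibitor of matrix metalloproteases, differed by 0.35, and Ptx3, a long pentraxin, by 1.2, before rises of 1.04 and 3.43 at 3 h.

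Of 22 genes of growth arrest and the p53 response, 6 had all 1 h arrays above and 0 below. Cdkn1a, the cyclin kinase inhibitor p21, read 1.15, 0.51 and 0.7 at 0.5 h, then 1.56, 1.45 and 1.25 at 1 h, a difference of 0.63 (adjusted P = 0.184), although the 0 h mean was 1.18; it rose by 2.03 at 3 h. Gadd45b and Gadd45g, stress sensors, differed by 0.49 and 0.65, and Plk3, a stress kinase, by 0.6. Of 21 antioxidant, metal and heat shock genes, 6 were all above and 0 below. Mt2A, a metallothionein that binds zinc, read 3.69, 3.02 and 3.38 and then 4.08, 4.16 and 4.3, a difference of 0.81 (0.41 to 1.22, adjusted P = 0.135), between rises of 1.35 before and 1.6 after the step. Mt1 differed by 0.54 with adjacent but separate groups.

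Of 18 glucocorticoid responsive genes, 6 were all above and 0 below, with a median difference of 0.3, or 0.29 above all genes, which was 0.04 with normexp. Sgk1, a kinase that regulates ion transport, read 3.0, 2.18 and 2.76 and then 3.42, 3.08 and 3.49, a difference of 0.68 (adjusted P = 0.251). Fkbp5 and Tsc22d3, steroid targets of the same list, overlapped between the groups and differed by -0.23 and 0.1. Nfkbia, Cdkn1a and Mt2A belong to this list as well as to those above, so the lists are not independent.

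In growth factor, SC, metabolic and housekeeping genes the medians of the lists lay between -0.1 and 0.2. Of 36 growth factors and neurotrophins, 4 were all above and 2 below, with a median of 0.04. Pdgfa, a ligand for PDGF receptors, read 2.2, 2.29 and 2.0 and then 2.55, 2.52 and 2.59, a difference of 0.39 (adjusted P = 0.154). Of 15 myelin genes 5 were all above and 0 below, with a median of 0.2. Of 15 SC transcription factors 0 were above and 3, Pou3f1, Srebf1 and Notch1, were below. Egr2, the master regulator of myelination, had risen by 1.23 at 0.5 h and differed by 0.21. The integrated stress response list had 2 of 13 above and 3 below, and the hypoxia and glycolysis list 2 of 22 above and 1 below. Slc2a1, the glucose transporter GLUT1, had fallen by 0.33 at 0.5 h and was higher at 1 h by 0.36 (0.16 to 0.55, adjusted P = 0.169). The medians of 75 ribosomal protein genes and 74 respiratory chain genes were 0.04 and -0.01.

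Among markers of the cells in the nerve, 0 genes of any list were called. Of 13 macrophage markers, 0 had all 1 h arrays above and 5 all below, Aif1, Lyz2, Cd68, C1qa and Itgam, and the median difference was -0.28. C1qa, a complement component, read 4.14, 3.89 and 4.28 at 0.5 h, then 3.41, 3.75 and 3.69 at 1 h, a difference of -0.49 (-0.87 to -0.11, adjusted P = 0.28). Cd68, a lysosomal protein, differed by -0.47 and Aif1 by -0.36. The summed level of the list nevertheless overlapped, running from 7.88 to 8.03 on the 0.5 h arrays against 7.85 to 8.01 on the 1 h arrays. The mast cell sums did not overlap, with 4.19 to 4.61 at 0.5 h above 3.72 to 4.12 at 1 h, and neither did the fibroblast sums, which were higher at 1 h although the median difference of their 10 markers was -0.06, with 2 all above and 3 all below. The neutrophil sums overlapped (1.98 to 2.73 against 2.15 to 2.64), and so did those of endothelium (5.81 to 5.94 against 5.9 to 6.04). The muscle markers had a median difference of -2.57 with overlapping arrays in all 14 genes.

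The genes with the largest differences were also ranked without regard to lists: the 15 highest and 15 lowest with a symbol, an unadjusted P under 0.01, all 3 arrays of the higher group well above background and no overlap. A rule that also asked for a call left none, and the ranking without it was chosen after the values were seen. Beside Cxcl11, Fosl1, Dusp2, Trib1, Il6, Thbs1 and Nfil3, the higher end held Arid5a, an RNA-binding protein that stabilises Il6 mRNA. Arid5a, probed at chr9:35243469-35243528 (rn4), read -0.78, -0.98 and -0.62 at 0.5 h, then 0.22, 0.33 and 0.94 at 1 h, a difference of 1.29 (0.87 to 1.7, limma adjusted P = 0.0724). Tfpi2, a serine protease inhibitor of the matrix, read -1.09, -0.98 and -0.87 and then -0.18, 0.47 and 0.48, a difference of 1.23 (adjusted P = 0.097). Noct, a circadian and immediate early gene, differed by 1.34 and Sphk1, the kinase that makes sphingosine 1-phosphate, by 1.26, ahead of a rise of 2.1 at 3 h. Pkp1, a desmosomal plakophilin, differed by 1.77 (adjusted P = 0.138) and fell by 1.66 at 3 h.

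The lower end held Il10 and genes of more diverse roles. Pde3b, a phosphodiesterase of cyclic nucleotides, had risen by 2.16 at 0.5 h and read -2.86, -3.06 and -2.32 there, then -3.97, -3.53 and -4.55 at 1 h, a difference of -1.27 (-1.87 to -0.66, adjusted P = 0.131), which shrank to -0.19 under 1 alternative. Fam184b differed by -1.43 (adjusted P = 0.133). The MHC gene RT1-M4 differed by -1.65 and the olfactory receptor gene Or9i16, not well above background at 1 h, was at least 2.86-fold lower, but both had the opposite sign under 1 alternative, at up to 0.2 and 0.25. Outside the ranking, the smallest adjusted P values of genes lower at 1 h were those of Spopl, an adaptor of a ubiquitin ligase, with -2.91, -2.66 and -2.71 and then -3.31, -3.36 and -3.46 (difference -0.62, -0.84 to -0.4, adjusted P = 0.0724), and of Clk1, a kinase of splicing factors, with 4.39, 4.46 and 4.65 and then 3.9, 3.86 and 3.75 (difference -0.66, -0.92 to -0.4, adjusted P = 0.097). Both were named after their values were seen. Across all settings tried, Fosl1 and Arid5a were called higher in 4, Trib1 in 3 and Il6, Btbd16, Crygn and Tmem26 in 2 each, and Clk1 and Spopl were called lower in 2.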

How the data were processed

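Total RNA of the proximal nerve was labelled with Cy3 and hybridised at a service company, and the files deposited by the authors hold processed signal intensity per spot from Agilent Feature Extraction. Normalised log2 values deposited by the authors as 1 table served as an alternative. Each of its columns had a median of 7.75 and ranked the probes as the intensities did, and its exact scaling is not given in the sources used here. Probe coordinates (rn4) are those of the array files. Here spots of 1 probe were averaged, outlier spots were left out, and log2 intensity minus the 75th percentile of each array was fitted with limma 3.58.1 (R 4.3.3) as 6 time-point means over 18 arrays. Tested were 32116 probes (27187 genes) that cleared the scanner's background flag on each of the 3 arrays of some time-point, and their number and brightness limit the precision. A gene was called at an unadjusted P under 0.01 with a Benjamini-Hochberg adjusted P under 0.05 and was read from its brightest tested probe. Symbols were taken from RefSeq by accession for 10862 genes, by symbol for 2010 and by synonym for 637; the other 13678 kept the name of the array file. Named were members of 19 pathway lists and 11 marker lists and the 15 genes at each end of the ranking. The comparison and the lists were chosen with earlier results of these data known. Replicate numbers did not pair the samples. Values of some listed genes are not reported here.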

Additional observations from a re-analysis of the deposited data

How the results depend on the processing

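In the step from 0.5 h to 1 h, 0 genes were called in either direction with normexp, no filter on dim probes, a filter on 0.5 h and 1 h alone, slide as a random block (correlation -0.0124), the 6 arrays alone, an adjusted P under 0.01, a 2-fold minimum or any probe of a gene. Quantile normalization and the deposited matrix each called 1 gene higher, a shift to the median 3 higher (Fosl1, Arid5a and Crygn), probes well above background on all 18 arrays 6 higher and 8 lower, a trend with a robust prior 3 higher and 8 lower, and array weights 215 higher and 194 lower. Leaving out 1 array gave 0 to 1 higher and 0 to 3 lower. Normexp moved the median step of all probes from 0.012 to 0.274. The cause of these differences was not tested. With the replicate number as a block, 0 genes were called in the step and no count moved by over 1.5 times; same-numbered arrays deviated together with correlations of -0.026, 0.178 and 0.001, so the numbers were not taken to pair samples. Slide as a fixed block could not be fitted, since each slide held 1 group.

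At 0.5 h against 0 h, normexp gave 116 higher and 7 lower, quantile normalization 693 higher, the median shift 719 higher and 1352 lower, the deposited matrix 734 higher, array weights 2074 higher and 1418 lower, the 6 arrays alone 75 lower, an adjusted P under 0.01 321 and 53, a 2-fold minimum 636 and 25, and leaving out 1 array 408 to 694 higher and 93 to 384 lower. At 3 h against 1 h, normexp gave 192 higher and 69 lower, the median shift 522 lower, array weights 2196 lower, the 6 arrays alone 244 and 101, an adjusted P under 0.01 710 and 382, a 2-fold minimum 421 and 162, and leaving out 1 array 848 to 1450 higher and 555 to 1328 lower.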
